A study of Mus musculus with 21 samples.

Results

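Scd2, Gja1 and Slc7a5 are 3 mouse genes whose RNA made up far more of the SRSF3 and SRSF7 crosslinks of the cytoplasm than of the chromatin. They are 3 of 34918 loci that held a listed crosslink position in any of the deposited lists, and they were chosen by the ratio of their cytoplasm share to their chromatin share. Scd2 is taken as chr19:44368000-44383355 on the plus strand, Gja1 as chr10:56096419-56111527 on the plus strand, and Slc7a5 as chr8:124405000-124432000 on the minus strand, all in mouse build mm9. Scd2 encodes a stearoyl-CoA desaturase, an enzyme of the endoplasmic reticulum that puts a double bond into saturated fatty acyl chains and so makes monounsaturated fatty acids. Gja1 encodes connexin 43, the subunit of gap junction channels through which neighbouring cells exchange ions and small molecules. Slc7a5 encodes LAT1, the light chain of a plasma membrane transporter that imports large neutral amino acids.

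SRSF3 and SRSF7 belong to the SR proteins, which bind RNA and carry a domain rich in serine and arginine. They take part in splicing, and both shuttle between nucleus and cytoplasm and can hand spliced mRNA to the export receptor NXF1. In fractionation iCLIP, ultraviolet light links the protein to the RNA it touches, the cells are separated into fractions, and each cDNA ends next to the linked nucleotide. A chromatin fraction is rich in RNA still being made, a nucleoplasm fraction in RNA released from the gene, and a cytoplasm fraction in exported mRNA.

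The cells were P19, a mouse embryonal carcinoma line, and expressed either SRSF3-GFP or SRSF7-GFP. Ultraviolet light of 254 nm was applied at 100 mJ/cm2 to all of them, and no other treatment is labelled. Cytoplasm, nucleoplasm and chromatin were each sampled in 4 replicates for SRSF3-GFP and in 3 for SRSF7-GFP, and the replicates of each group were deposited as 1 pooled list of positions with their cDNA counts. The SRSF3 lists held 257089 cDNAs in cytoplasm, 315510 in nucleoplasm and 1768665 in chromatin. The SRSF7 lists held 367298 cDNAs in cytoplasm, 275018 in nucleoplasm and 248498 in chromatin. No spread between replicates could be measured, so no test was possible and the 95% intervals below cover counting error only. The labels list no sample without a tagged protein, and no RNA level per fraction was used here. More RNA of a gene in a fraction and more binding per RNA molecule therefore cannot be told apart.

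Together the 3 genes held 942 cDNAs in SRSF3 cytoplasm, 1119 in SRSF3 nucleoplasm and 959 in SRSF3 chromatin. They held 3582 cDNAs in SRSF7 cytoplasm, 771 in SRSF7 nucleoplasm and 58 in SRSF7 chromatin. As a share of each list this was 0.366%, 0.355% and 0.0542% with SRSF3, and 0.975%, 0.280% and 0.0233% with SRSF7, in the order cytoplasm, nucleoplasm and chromatin. The sign of the deposited counts was read as the strand, and nearly all cDNAs lay on the strand of the gene: 2 cDNAs of SRSF3 chromatin in Slc7a5 were the exception. No list held a cDNA on the gene's strand within 10 kb outside any of the 3 intervals. Both Gja1 borders and the 3′ border of Scd2 lie exactly on listed positions, so the empty flanks are not independent of how the intervals were drawn.

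Scd2 was bound in all 6 lists, and its share was lowest in chromatin for both proteins. The SRSF3 lists held 324 Scd2 cDNAs in cytoplasm (0.126% of the list, 0.113 to 0.141), 697 in nucleoplasm (0.221%, 0.205 to 0.238) and 604 in chromatin (0.0342%, 0.0315 to 0.0370). The SRSF7 lists held 1901 in cytoplasm (0.518%, 0.495 to 0.541), 382 in nucleoplasm (0.139%, 0.125 to 0.154) and 25 in chromatin (0.0101%, 0.00651 to 0.0149). The SRSF7 cytoplasm share stood highest, followed by SRSF3 nucleoplasm. The intervals of SRSF7 nucleoplasm and SRSF3 cytoplasm overlapped, and both chromatin shares lay below them. For SRSF3 the name cytoplasm-bound holds for Scd2 against chromatin but not against nucleoplasm, where the share was higher than in cytoplasm. In SRSF7 cytoplasm Scd2 ranked 12 by share among 12498 listed loci, whereas in SRSF7 chromatin it ranked 795 of 9106.

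Gja1 shares stood in the same order for both proteins, with cytoplasm above nucleoplasm and nucleoplasm above chromatin. The SRSF3 lists held 473 Gja1 cDNAs in cytoplasm (0.184%, 0.168 to 0.201), 341 in nucleoplasm (0.108%, 0.0969 to 0.120) and 345 in chromatin (0.0195%, 0.0175 to 0.0217). The SRSF7 lists held 1069 in cytoplasm (0.291%, 0.274 to 0.309), 230 in nucleoplasm (0.0836%, 0.0732 to 0.0952) and 14 in chromatin (0.00563%, 0.00308 to 0.00945). None of the 6 intervals overlapped. From high to low the order was SRSF7 cytoplasm, SRSF3 cytoplasm, SRSF3 nucleoplasm, SRSF7 nucleoplasm, SRSF3 chromatin and SRSF7 chromatin. Gja1 ranked 19 by share in SRSF7 cytoplasm and 47 of 8266 loci in SRSF3 cytoplasm.

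Slc7a5 differed from the other genes in being almost missing from the SRSF3 chromatin list. The SRSF3 lists held 145 Slc7a5 cDNAs in cytoplasm (0.0564%, 0.0476 to 0.0664), 81 in nucleoplasm (0.0257%, 0.0204 to 0.0319) and 10 in chromatin (0.000565%, 0.000271 to 0.00104). The SRSF7 lists held 612 in cytoplasm (0.167%, 0.154 to 0.180), 159 in nucleoplasm (0.0578%, 0.0492 to 0.0675) and 19 in chromatin (0.00765%, 0.00460 to 0.0119). SRSF7 cytoplasm was again highest, and SRSF7 nucleoplasm and SRSF3 cytoplasm had overlapping intervals. The 2 chromatin lists were lowest, with SRSF3 chromatin below SRSF7 chromatin. Slc7a5 ranked 7699 of 18230 loci in SRSF3 chromatin and 40 in SRSF7 cytoplasm.

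**Figure D1:**
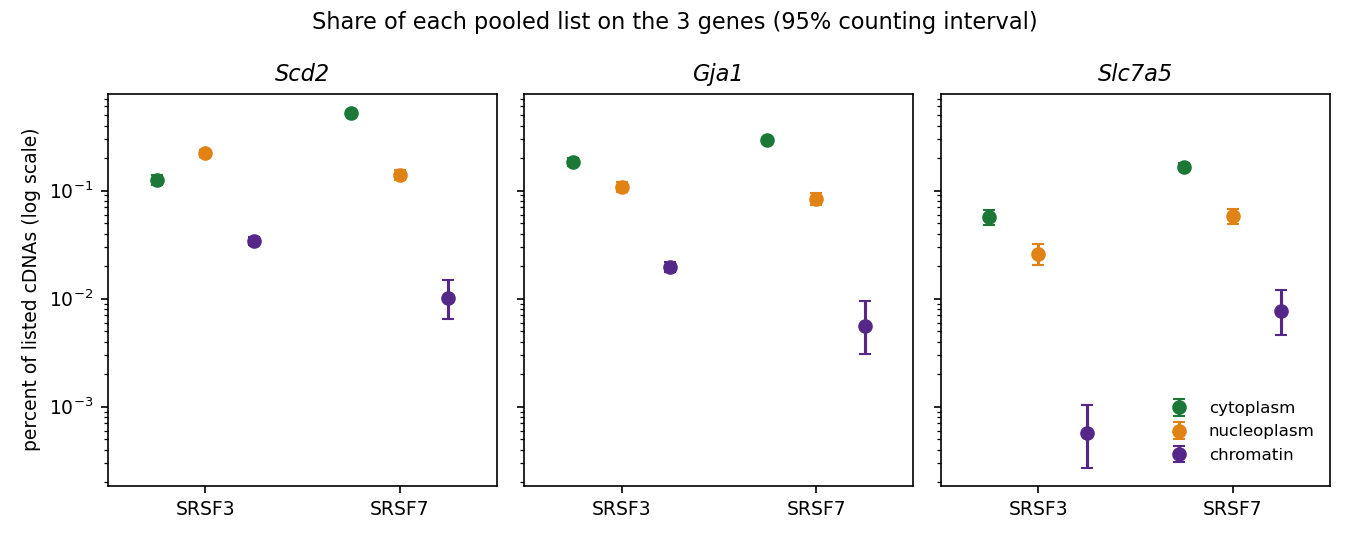
Share of each pooled list on Scd2, Gja1 and Slc7a5, in percent of listed cDNAs on a log axis, with bars for the exact 95% counting interval. Cytoplasm lies highest and chromatin lowest for each gene and protein, except that Scd2 in the SRSF3 lists was higher in nucleoplasm (0.221%) than in cytoplasm (0.126%).

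The ratio of the cytoplasm share to the chromatin share chose these genes and is given as a description. For Scd2 it was 3.69 (3.21 to 4.23) with SRSF3 and 51.4 (34.7 to 79.7) with SRSF7. For Gja1 it was 9.43 (8.19 to 10.9) with SRSF3 and 51.7 (30.7 to 94.8) with SRSF7. For Slc7a5 the order of the proteins was the other way round, with 99.8 (52.7 to 212) for SRSF3 and 21.8 (13.8 to 36.4) for SRSF7. Loci were compared when both lists together held at least 50 cDNAs and each at least 10, and were counted as different when the whole interval of the ratio lay beyond 2-fold. All 3 genes were higher in cytoplasm by that measure, beside 38% of 1050 loci compared for SRSF3 and 16.8% of 852 for SRSF7. The median ratio over these loci was 1.67 for SRSF3 and 0.992 for SRSF7. Gja1 and Scd2 had the highest and next highest ratios of the 852 SRSF7 loci, and Slc7a5 ranked 8. Among the 1050 SRSF3 loci Slc7a5 ranked 4, Gja1 155 and Scd2 354. Loci with fewer than 10 chromatin cDNAs have no rank, so the ranks do not cover the loci with least chromatin signal. One such locus, chr8:87355727-87370766, held 0.0931% of SRSF7 cytoplasm and 0.00161% of SRSF7 chromatin (4 cDNAs). Slc7a5 itself had 10 cDNAs in SRSF3 chromatin, the lowest count allowed. Of 547 loci compared for both proteins, 64 lay beyond 2-fold higher in cytoplasm for both. The Scd2 ratio for SRSF3 moved with what was counted. It was 1.68 (1.36 to 2.06) over positions with at least 3 cDNAs, no longer wholly beyond 2-fold, and 9.21 (7.62 to 11.1) with each listed position counted once. For SRSF7 the ratios by positions were 24.0 for Scd2, 29.3 for Gja1 and 13.3 for Slc7a5, each with its whole interval above 2.

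**Figure D2:**
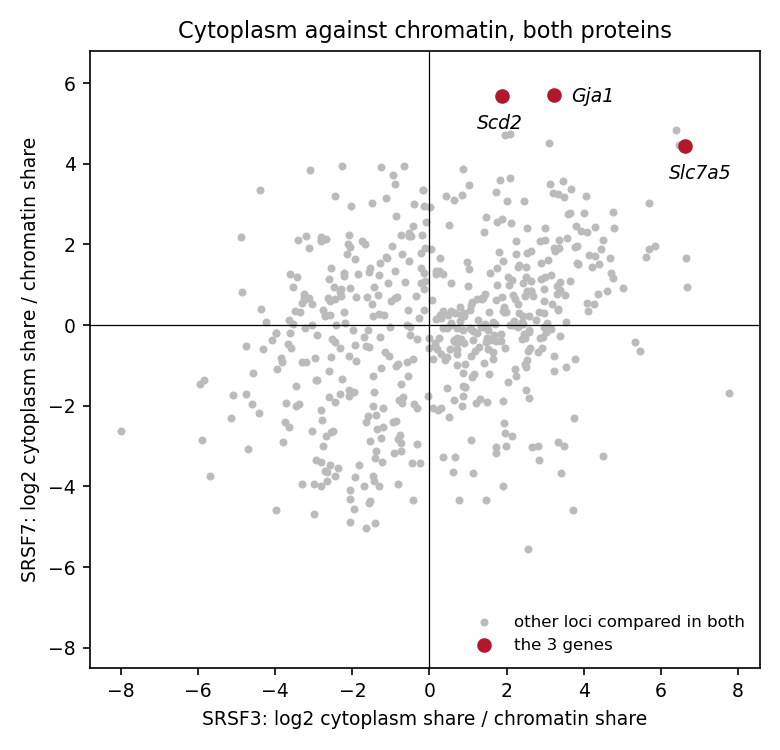
Ratio of cytoplasm share to chromatin share on a log2 scale, with SRSF3 on the x axis and SRSF7 on the y axis, for the 547 loci compared for both proteins. Scd2 and Gja1 lie at the top, at 5.68 and 5.69 for SRSF7, and Slc7a5 lies far to the right, at 6.64 for SRSF3.

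Nucleoplasm was not part of the choice of the genes, but its comparisons share the cytoplasm or chromatin list with the ratio above and are not independent of it. With SRSF7 the cytoplasm share exceeded the nucleoplasm share 3.73-fold for Scd2 (3.34 to 4.17), 3.48-fold for Gja1 (3.02 to 4.03) and 2.88-fold for Slc7a5 (2.42 to 3.45). All 3 genes lay beyond 2-fold higher in cytoplasm, compared with 16.6% of 1248 loci, and their ranks from the top were 141, 169 and 225. With SRSF3 the same ratio was 0.570 for Scd2 (0.498 to 0.652), 1.70 for Gja1 (1.48 to 1.96) and 2.20 for Slc7a5 (1.66 to 2.92). None of the 3 genes lay beyond 2-fold in either direction, where 8.36% of 921 loci were higher in cytoplasm and 16.8% were lower. The Scd2 ratio was 1.05 (0.868 to 1.25) with each position counted once, an interval that includes 1, and 0.365 (0.296 to 0.447) over positions with at least 3 cDNAs, wholly beyond 2-fold lower. The Slc7a5 ratio was wholly beyond 2-fold higher by positions, at 3.29 (2.27 to 4.81), and with the 10 highest loci and the mitochondrial genome left out, at 2.69 (2.03 to 3.57). Scd2 had 1.75 cDNAs per position in SRSF3 cytoplasm and 2.11 in SRSF3 nucleoplasm. The SRSF7 ratios over positions with at least 3 cDNAs were higher, at 7.76 for Scd2, 6.70 for Gja1 and 7.13 for Slc7a5.

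Nucleoplasm exceeded chromatin for each gene and both proteins. With SRSF3 the ratio of nucleoplasm to chromatin was 6.47 for Scd2 (5.79 to 7.23), 5.54 for Gja1 (4.76 to 6.45) and 45.4 for Slc7a5 (23.5 to 98.3). With SRSF7 it was 13.8 for Scd2 (9.21 to 21.6), 14.8 for Gja1 (8.67 to 27.6) and 7.56 for Slc7a5 (4.69 to 12.9). All 3 genes lay beyond 2-fold for both proteins, beside 31.6% of 1778 loci for SRSF3 and 21.5% of 915 loci for SRSF7. Slc7a5 ranked 2 among the SRSF3 loci, and Gja1 and Scd2 ranked 3 and 5 among the SRSF7 loci. These ranks too leave out loci with fewer than 10 cDNAs in chromatin. By positions the SRSF7 ratio was 7.60 for Scd2 and 4.63 for Slc7a5, and over positions with at least 3 cDNAs the SRSF3 ratio was 8.89 for Gja1, all still beyond 2-fold. A lower share in chromatin was thus seen against nucleoplasm as well as against cytoplasm.

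The proteins were then set against each other within a fraction, a comparison the choice did not use directly although it shares its lists. In cytoplasm the SRSF3 share was 0.243 times the SRSF7 share for Scd2 (0.216 to 0.274), 0.632 times for Gja1 (0.566 to 0.705) and 0.338 times for Slc7a5 (0.280 to 0.406). Scd2 and Slc7a5 lay beyond 2-fold lower with SRSF3, and Gja1 did not. Over 865 loci 20.6% were lower with SRSF3 and the median ratio was 0.924. By positions the ratio was 0.454 for Scd2 (0.386 to 0.532) and 0.505 for Slc7a5 (0.394 to 0.641), neither wholly beyond 2-fold. Over positions with at least 3 cDNAs the Gja1 ratio was 0.921 (0.800 to 1.06), an interval that includes 1.

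In nucleoplasm the SRSF3 share was 1.59 times the SRSF7 share for Scd2 (1.40 to 1.81), 1.29 times for Gja1 (1.09 to 1.53) and 0.444 times for Slc7a5 (0.336 to 0.584). None was wholly beyond 2-fold, where 12.7% of 1093 loci were higher with SRSF3 and 18.3% were lower. This changed over positions with at least 3 cDNAs, where the ratio was 3.37 for Scd2 (2.61 to 4.40), 3.48 for Gja1 (2.48 to 4.98) and 1.25 for Slc7a5 (0.659 to 2.45). By positions it was 0.968 for Gja1 (0.770 to 1.22). In chromatin the SRSF3 share was 3.39 times the SRSF7 share for Scd2 (2.28 to 5.29) and 3.46 times for Gja1 (2.04 to 6.40). Over all listed cDNAs Scd2 and Gja1 thus had a larger SRSF7 share in cytoplasm and a larger SRSF3 share in chromatin, which for Gja1 in cytoplasm did not hold over positions with at least 3 cDNAs. Slc7a5 stood the other way in chromatin, with an SRSF3 share 0.0739 times that of SRSF7 (0.0307 to 0.167). Of 1358 loci compared in chromatin, 21.4% were higher with SRSF3 and 17.2% lower, and Slc7a5 with 10 and 19 cDNAs was too thin to be among them. By positions the chromatin ratio was 1.19 for Scd2 (0.769 to 1.92) and 1.69 for Gja1 (0.928 to 3.45), both with intervals that include 1. With the 10 highest loci and the mitochondrial genome left out it was 2.64 (1.77 to 4.11) and 2.69 (1.58 to 4.97), no longer wholly beyond 2-fold. SRSF7 chromatin held no position of these genes with more than 2 cDNAs. The track names of the SRSF7 lists carry a peak-calling term that those of SRSF3 lack, and a difference in calling cannot be told apart from the protein.

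Position within the gene was not used to choose the genes. The cytoplasm crosslinks of each gene were divided at the longest run without a position in either cytoplasm list. This gave a short 5′ block, an empty stretch and a longer 3′ block. The emptiness of the stretch in cytoplasm and the division into blocks are therefore by definition. In Scd2 the 5′ block ran over 1056 nt (chr19:44368569-44369624), the empty stretch over 2907 nt and the 3′ block over 8775 nt (chr19:44372532-44381306). In Gja1 they ran over 276 nt (chr10:56097036-56097311), 10030 nt and 2807 nt (chr10:56107342-56110148). In Slc7a5, which reads toward lower coordinates, they ran over 542 nt (chr8:124431033-124431574), 18708 nt and 7253 nt (chr8:124405072-124412324). The empty stretch covered 18.9% of the Scd2 interval, 66.4% of the Gja1 interval and 69.3% of the Slc7a5 interval. No annotation of build mm9 was used, so the blocks were not assigned to exons, introns or untranslated regions. The outermost cytoplasm positions spanned 12738 nt in Scd2, 13113 nt in Gja1 and 26503 nt in Slc7a5. In Scd2 the 3′ block made up 8775 nt of this span, so it was not confined to the 3′ end of the gene. The gene lengths in the RefSeq table of build GRCm38 are 13189, 13120 and 26541 bases.

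The 3′ block held most cytoplasm cDNAs of all 3 genes. For Scd2 it held 84.3% of SRSF3 cytoplasm cDNAs (79.8 to 88.0) and 86.5% of SRSF7 cytoplasm cDNAs (84.9 to 88.0). For Gja1 it held 92.0% (89.1 to 94.3) and 91.7%, and for Slc7a5 91.0% and 84.8%. The rest lay in the 5′ block, 13.5% to 15.7% for Scd2, 8.03% to 8.33% for Gja1 and 8.97% to 15.2% for Slc7a5. Averaged over the whole block, the 5′ block held more cDNAs per kilobase in Scd2 and Slc7a5. In SRSF7 cytoplasm it held 243 cDNAs per kb in Scd2 against 187 in the 3′ block, 322 against 349 in Gja1 and 172 against 71.6 in Slc7a5. The 3′ block thus exceeded the 5′ block in total cDNAs and in length, but not in mean cDNAs per kb for Scd2 and Slc7a5. Their long 3′ blocks were unevenly filled, so this mean does not give the density near the 3′ end. The densest 2 kb, picked for its density, held 781 SRSF7 cytoplasm cDNAs in Scd2 and 424 in Slc7a5. That was more per kb than in the 5′ block of either gene.

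The 3′ end itself was reached to a different degree. In Slc7a5 the densest 2 kb window was chr8:124405070-124407069, at the very 3′ end of the gene's listed positions. It held 71.0% of SRSF3 cytoplasm cDNAs (62.9 to 78.3) and 69.3% of SRSF7 cytoplasm cDNAs (65.5 to 72.9). In Gja1 the densest window, chr10:56108365-56110364, reached past the last cytoplasm position and held 86.3% with SRSF3 (82.8 to 89.2) and 77.1% with SRSF7. In Scd2 the densest window, chr19:44377383-44379382, ended 1924 nt before the last cytoplasm position and held 56.8% with SRSF3 (51.2 to 62.3) and 41.1% with SRSF7 (38.9 to 43.3). The windows covered 27.5% of the 3′ block in Slc7a5, 63.6% in Gja1 and 22.8% in Scd2, so the Gja1 share cannot be set against the others without regard to its shorter block. Of the genes with long 3′ blocks, Slc7a5 had this window over all lists at the 3′ end of the block and Scd2 did not. For Scd2 this did not hold in SRSF7 cytoplasm alone. There the 2 kb before the last cytoplasm position held 43.6%, more than the 41.1% of the window. With SRSF3 those 2 kb held 27.5%, less than the 56.8% of the window. The share in the last 2 kb of the given interval was 0% in both Scd2 cytoplasm lists, 19.2% and 25.1% in Gja1, and 71.0% and 69.3% in Slc7a5 (SRSF3 and SRSF7). It depends on where the interval ends: counted back from the last cytoplasm position, the last 2 kb held 27.5% and 43.6% in Scd2 and 87.9% and 80.1% in Gja1. That border was chosen after the data were seen.

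The part near the 3′ end was set against other loci by taking the last 20% of the length of each locus of 5 to 50 kb. In SRSF7 cytoplasm this held 76.2% of Gja1 cDNAs and 80.6% of Slc7a5 cDNAs, compared with a median of 33.1% (quartiles 0 and 68.6) over 476 loci. It held 27.1% of Scd2 cDNAs, and 47.5% of the loci lay lower than that. In SRSF3 cytoplasm it held 86.3% for Gja1 and 91.0% for Slc7a5, with a median of 13.3% (quartiles 0 and 67.1) over 172 loci, and 26.5% for Scd2. Of these loci 81.9% lay lower than Gja1 and 85.5% lower than Slc7a5 with SRSF7, and 84.3% and 86.6% with SRSF3. By this measure Scd2 lay near the middle of the loci, and the other genes lay high among them. For Slc7a5 this rests on how its locus was drawn. Other loci were split at gaps beyond 10000 nt, but Slc7a5 was kept whole across 18708 nt without a listed position. The last 20% was not measured with Slc7a5 split in the same way, so its place among the loci depends on this choice. Each locus ends at the last position of any list. In Scd2 that was chr19:44383355 in SRSF3 chromatin, past the last cytoplasm position at chr19:44381306. Part of its last 20% thus held no cytoplasm cDNA, and its place among the loci depends on this border.

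**Figure D3:**
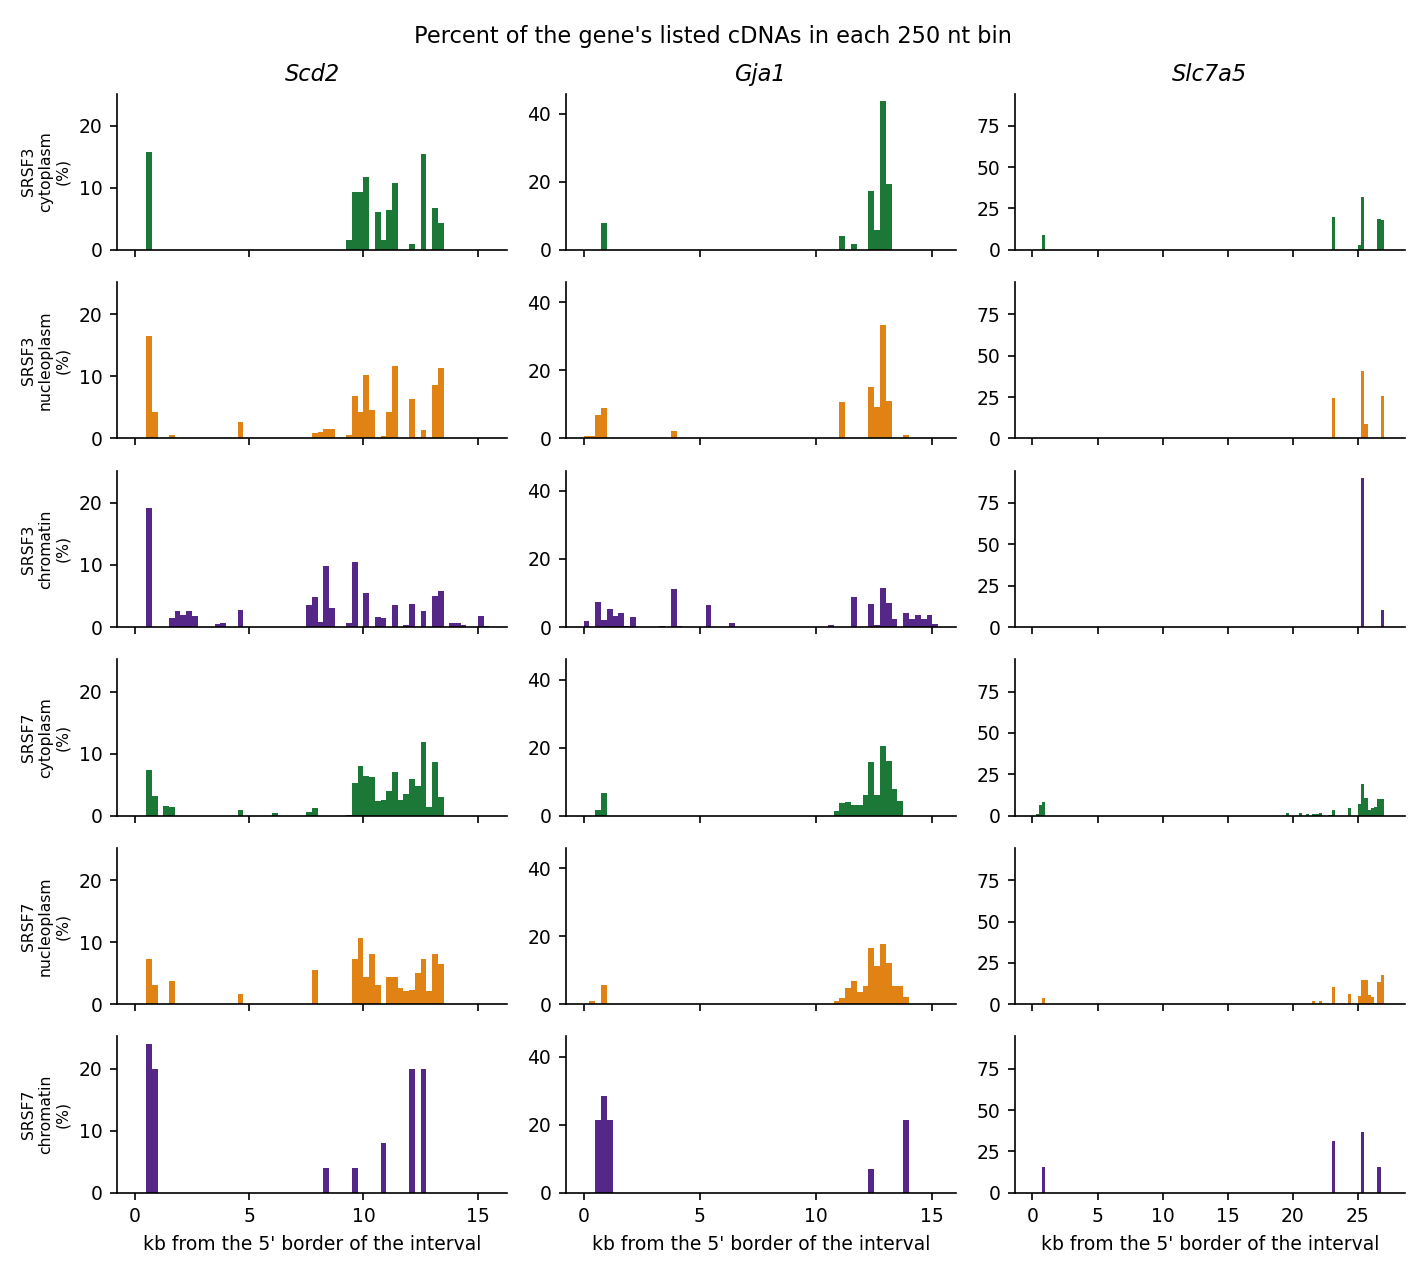
Percent of each gene's listed cDNAs in bins of 250 nt, against the distance in kb from the 5′ border of its interval, with 1 row per list. Cytoplasm rows show a bar near the 5′ end and a group of bars toward the 3′ end, while the SRSF3 chromatin row of Gja1 and Scd2 also fills parts of the stretch between them. The SRSF7 chromatin row rests on 25 Scd2, 14 Gja1 and 19 Slc7a5 cDNAs.

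The chromatin crosslinks of Gja1 were placed differently from the cytoplasm ones. In SRSF3 chromatin 127 of 345 Gja1 cDNAs lay in the stretch that was empty in cytoplasm (36.8%, 31.7 to 42.1), against 7 of 341 in SRSF3 nucleoplasm (2.05%, 0.829 to 4.18). The same stretch held 6 of 14 cDNAs in SRSF7 chromatin and 0 of 230 in SRSF7 nucleoplasm, which allows up to 1.30%. A further 57 Gja1 cDNAs of SRSF3 chromatin (16.5%) and 3 of SRSF7 chromatin lay beyond the last cytoplasm position. The 3′ block held 92.0% of the gene's cDNAs in SRSF3 cytoplasm, 80.1% in SRSF3 nucleoplasm and 36.8% in SRSF3 chromatin. By the 3′ block and the empty stretch, SRSF3 nucleoplasm was nearer to SRSF3 cytoplasm than to SRSF3 chromatin. The 5′ block set it apart from cytoplasm, with 15.8% (12.1 to 20.2) in SRSF3 nucleoplasm and 8.03% (5.75 to 10.9) in SRSF3 cytoplasm. With SRSF7 the 3′ block held 91.3% in nucleoplasm (86.9 to 94.6) and 91.7% in cytoplasm.

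Scd2 showed a difference of the same kind, which was smaller when measured by the share in its empty stretch. In SRSF3 chromatin 62 of 604 Scd2 cDNAs lay in the empty stretch (10.3%, 7.96 to 13.0), and a further 26 (4.30%) lay beyond the last cytoplasm position. The stretch held 0 of 697 cDNAs in SRSF3 nucleoplasm, 0 of 382 in SRSF7 nucleoplasm and 0 of 25 in SRSF7 chromatin. The 3′ block held 84.3% of the gene's cDNAs in SRSF3 cytoplasm, 78.6% in SRSF3 nucleoplasm and 64.7% in SRSF3 chromatin. Between 50% and 60% of the way along the Scd2 interval SRSF3 had 0 cDNAs in cytoplasm, 35 in nucleoplasm (5.02%) and 132 in chromatin (21.9%). SRSF7 had 33 cDNAs there in cytoplasm, 1.74% of its Scd2 total. The empty stretch ends at SRSF7 cytoplasm positions, with 18 cDNAs in the 250 nt bin at 4500 nt from the 5′ border. SRSF3 cytoplasm held no cDNA from that bin up to the bin at 9250 nt. The 132 SRSF3 chromatin cDNAs lie between these bins and were counted in the 3′ block. For SRSF3 alone, the empty stretch therefore does not show that the difference was smaller in Scd2 than in Gja1.

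Slc7a5 showed no listed cDNA in the empty stretch in any list, although that stretch made up most of the gene. All 10 cDNAs of SRSF3 chromatin and 16 of 19 of SRSF7 chromatin lay in the 3′ block, and the other SRSF7 cDNAs lay in the 5′ block. In SRSF3 nucleoplasm all 81 cDNAs lay in the 3′ block, and in SRSF7 nucleoplasm 152 of 159 did (95.6%). With so few chromatin cDNAs a modest share in the empty stretch was not detectable at this depth.

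**Figure D4:**
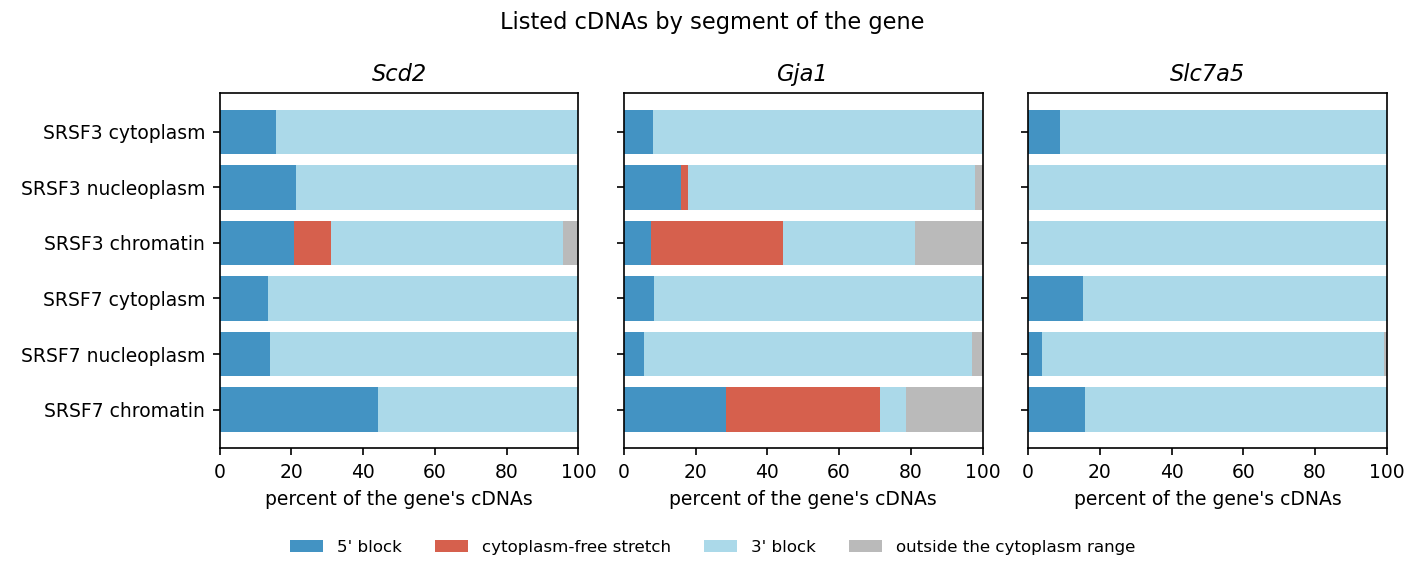
Percent of each gene's listed cDNAs in the 5′ block, the cytoplasm-free stretch, the 3′ block and outside the range of cytoplasm positions, with 1 bar per list. The cytoplasm-free stretch appears in SRSF3 chromatin for Scd2 (10.3%) and Gja1 (36.8%), in SRSF7 chromatin for Gja1 (6 of 14 cDNAs) and at 2.05% in SRSF3 nucleoplasm for Gja1.

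The cytoplasm to chromatin ratio that chose the genes is given here for each block as a description. The 3′ block held most of the cytoplasm cDNAs behind that choice, and the blocks were drawn from cytoplasm positions, so a high ratio in the 3′ block is not independent of either. In the Gja1 3′ block SRSF3 had 435 cDNAs in cytoplasm and 127 in chromatin, a ratio of shares of 23.6 (19.3 to 28.9), while in its 5′ block the ratio was 10.1 (5.95 to 17.2). In Scd2 the SRSF3 ratio was 4.80 (4.10 to 5.62) in the 3′ block and 2.81 (1.99 to 3.92) in the 5′ block. With SRSF7 the Scd2 ratio was 79.4 (47.2 to 146) in the 3′ block and 15.8 (8.69 to 32.1) in the 5′ block. For Gja1 with SRSF7 the 3′ block held 980 cDNAs in cytoplasm and 1 in chromatin (663, 119 to 26215), and the 5′ block 89 and 4 (15.1, 5.68 to 56.5). In Scd2 and Gja1 the ratio was higher in the 3′ block than in the 5′ block with both proteins. For Slc7a5 with SRSF7 the ratios were 21.9 (13.4 to 38.7) in the 3′ block and 21.0 (6.96 to 104) in the 5′ block.

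Along each gene, positions no more than 30 nt apart were joined into clusters over the 6 lists. Scd2 had 49 clusters, of which 4 were present in all 6 lists and 18 in SRSF3 chromatin alone. Gja1 had 44, of which 2 were present in all lists and 23 in SRSF3 chromatin alone. Slc7a5 had 23, of which 1 was present in all lists and 0 in SRSF3 chromatin alone. Each cluster that SRSF3 had in cytoplasm was also present in SRSF7 cytoplasm, 11 in Scd2, 5 in Gja1 and 7 in Slc7a5. SRSF7 had further cytoplasm clusters, for totals of 26, 13 and 23. The SRSF3 chromatin list held 870234 positions, whereas the other lists held from 58686 (SRSF3 cytoplasm) to 142444 (SRSF7 cytoplasm). Clusters seen in SRSF3 chromatin alone, or missing from a smaller list, depend on these sizes. Such counts were not made for other loci.

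Gja1 was dominated by 1 cluster of 992 nt, chr10:56108999-56109990, which ended 158 nt before the last cytoplasm position. With SRSF3 it held 326 cDNAs in cytoplasm (68.9% of the gene's), 184 in nucleoplasm (54.0%) and 74 in chromatin (21.4%). With SRSF7 it held 557 in cytoplasm (52.1%), 114 in nucleoplasm (49.6%) and 0 of 14 in chromatin. The tallest Gja1 positions of SRSF3 cytoplasm (17 cDNAs, chr10:56109263) and SRSF7 cytoplasm (13 cDNAs, chr10:56109275) lay 12 nt apart within it. The tallest positions of both nucleoplasm lists lay there as well, 13 nt apart. The next clusters by weight were chr10:56108832-56108958, with 82, 51 and 23 cDNAs for SRSF3 and 105, 42 and 1 for SRSF7, and chr10:56097139-56097311 in the 5′ block, with 38, 51 and 26 for SRSF3 and 86, 13 and 4 for SRSF7 (cytoplasm, nucleoplasm and chromatin each time).

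SRSF3 chromatin had its tallest Gja1 position elsewhere, with 12 cDNAs at chr10:56097451. It lay in a cluster, chr10:56097386-56097466, that began 75 nt past the end of the 5′ block. This cluster held 0 cDNAs in cytoplasm, 0 in nucleoplasm and 21 in chromatin for SRSF3, and 0, 0 and 6 for SRSF7. Both chromatin lists and neither protein's other lists thus had crosslinks there, 6.09% of the gene's SRSF3 chromatin cDNAs. A count of 0 allows up to 0.634% in SRSF3 cytoplasm, 0.880% in SRSF3 nucleoplasm, 0.281% in SRSF7 cytoplasm and 1.30% in SRSF7 nucleoplasm.

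Scd2 had no single dominant cluster. The heaviest was at the 5′ end, chr19:44368569-44368866, with 51 cDNAs in cytoplasm, 145 in nucleoplasm and 116 in chromatin for SRSF3, and 201, 40 and 11 for SRSF7. The next, chr19:44381016-44381307, held the last cytoplasm position, beyond which SRSF3 chromatin had 26 further cDNAs. This cluster held 36, 139 and 61 cDNAs for SRSF3 and 220, 56 and 0 for SRSF7. The third, chr19:44380433-44380780, was the one of these clusters whose part of the gene's SRSF3 cDNAs differed most between fractions. It held 50 SRSF3 cDNAs in cytoplasm (15.4% of the gene's), 10 in nucleoplasm (1.43%) and 16 in chromatin (2.65%), and 282, 38 and 5 for SRSF7. The tallest Scd2 position was the same nucleotide in both cytoplasm lists, chr19:44378222, with 9 cDNAs for SRSF3 and 16 for SRSF7. The tallest of SRSF3 nucleoplasm, with 16 cDNAs, lay 1 nt away. In SRSF3 chromatin the tallest position was chr19:44375734 with 14 cDNAs, tied with 1 other. Its cluster, chr19:44375706-44375819, held 0 SRSF3 cDNAs in cytoplasm, 6 in nucleoplasm and 49 in chromatin, and 32, 7 and 0 for SRSF7. This site was therefore not empty in cytoplasm for SRSF7.

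The heaviest Slc7a5 cluster, chr8:124406516-124406679, was the gene's only cluster present in all 6 lists. For SRSF3 it held 46 cDNAs in cytoplasm (31.7% of the gene's), 33 in nucleoplasm (40.7%) and 9 of 10 in chromatin. For SRSF7 it held 116 in cytoplasm (19.0%), 23 in nucleoplasm (14.5%) and 7 of 19 in chromatin. The cluster at the 3′ end, chr8:124405070-124405124, held 26, 21 and 1 cDNAs for SRSF3 and 34, 26 and 0 for SRSF7. It included the tallest Slc7a5 position of SRSF3 cytoplasm, chr8:124405094 with 6 cDNAs. Next to it, chr8:124405155-124405458 held 27, 0 and 0 cDNAs for SRSF3 and 88, 23 and 3 for SRSF7. The tallest position of SRSF7 cytoplasm, chr8:124407611 with 7 cDNAs, lay in a cluster that held 27 cDNAs in SRSF7 cytoplasm and 10 in SRSF7 nucleoplasm and none in any SRSF3 list.

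Nearly all SRSF3 cytoplasm positions lay next to an SRSF7 one, but most SRSF7 positions had no SRSF3 position nearby. Of SRSF3 cytoplasm positions, 180 of 185 in Scd2 (97.3%, 93.8 to 99.1), 139 of 141 in Gja1 (98.6%) and 81 of 83 in Slc7a5 (97.6%) lay within 5 nt of an SRSF7 cytoplasm position. In the other direction 268 of 989 SRSF7 positions in Scd2 (27.1%), 152 of 602 in Gja1 (25.2%) and 81 of 399 in Slc7a5 (20.3%) lay that near an SRSF3 position. Within the 3′ block of Scd2 96.7% of the SRSF3 positions lay that near, against 29.4% of all nucleotides of the block. In Slc7a5 the values were 97.3% of the SRSF3 positions and 21.3% of all nucleotides. In Gja1 they were 98.4% and 72.0%, so SRSF7 positions covered most of that block and leave less room for a difference. The 3′ blocks of Scd2 and Slc7a5 were unevenly filled and include stretches with few or no cytoplasm cDNAs of either protein. Those stretches lower the share of nucleotides, so part of the difference in these genes is built in.

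Within a protein, cytoplasm positions recurred in nucleoplasm more often than in chromatin. For SRSF3, 79.5% of Scd2, 73.0% of Gja1 and 54.2% of Slc7a5 cytoplasm positions lay within 5 nt of a nucleoplasm position. Against SRSF3 chromatin the shares were 64.9% (57.5 to 71.7), 49.6% (41.1 to 58.2) and 22.9% (14.4 to 33.4). For SRSF7 the shares near nucleoplasm were 51.8%, 43.2% and 41.9%, and those near chromatin 6.47%, 2.99% and 8.52%. The SRSF7 chromatin list offered 22, 11 and 16 positions in the 3 genes and the SRSF3 chromatin list 298, 213 and 10, and the shares were not scaled to those numbers.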

How the data were processed

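Positions crosslinked to SRSF3-GFP and SRSF7-GFP were analysed in cytoplasm, nucleoplasm and chromatin of P19 cells, from 6 deposited lists. The authors pooled 4 (SRSF3) or 3 (SRSF7) replicates per list, per the labels. The deposited values are signed whole-number cDNA counts at single nucleotides, unscaled as far as can be seen. Strand was inferred from the sign. Listed positions passed a false discovery rate of 0.05 against 100 permutations with a 15 nt neighbourhood, per the file headers. In the SRSF7 headers the track name says regions as one and the description says separately. How reads were aligned, deduplicated and called was not given in the sources used here. Positions are 1-based in mm9, the build named in the submitters' processing notes.

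For a share of listed cDNAs the exact Clopper-Pearson 95% interval was computed, and for a ratio of 2 shares the interval of the conditional binomial, both for counting error alone. A count of 0 was read as allowing 3 counts. Loci joined positions of all lists at gaps up to 10000 nt on 1 strand, with each gene kept as 1 locus. Within the genes, the 3 clusters with most cDNAs (lists weighted equally) and the tallest position of each list were named by rule. Other clusters named are those holding a tallest position. The blocks and the 3 genes' intervals, lists and rules were chosen with earlier results of these data known. Family and partner genes were not analysed, because no mm9 annotation was used. The locus comparison was tested on simulated data. Alternatives covered positions with at least 3 cDNAs, positions in place of cDNAs, totals with the 10 highest loci and the mitochondrial genome left out, interval borders, distances and locus minima. Values were computed in Python 3.11.15 with scipy 1.17.1, pandas 2.3.3 and numpy 2.4.6, and drawn with matplotlib 3.10.9.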

Additional observations from a re-analysis of the deposited data

Results flagged for a closer look

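Scd2 moved in opposite directions between cytoplasm and nucleoplasm for the 2 proteins: the ratio of the cytoplasm share to the nucleoplasm share was 0.57 for SRSF3 and 3.73 for SRSF7. The SRSF3 to SRSF7 ratio of Scd2 was 0.243 in cytoplasm, 1.59 in nucleoplasm and 3.39 in chromatin, so its direction differed between cytoplasm and the nuclear fractions. The same ratio for Gja1 was 0.632 in cytoplasm, 1.29 in nucleoplasm and 3.46 in chromatin. With 1 pooled list per group these differences were not tested.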

How the results depend on the processing

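The ratios of cytoplasm to chromatin share, which chose the genes, stayed above 2 in 25 of 26 alternatives that gave a value. These include the intervals widened by 1 kb, which could change nothing because no list held a cDNA there. Over positions with at least 3 cDNAs only SRSF3 with Scd2 and Gja1 gave a value. For SRSF3 with Scd2 the ratio was 1.68 over positions with at least 3 cDNAs, 6.0 with the 10 highest loci and the mitochondrial genome left out, and 9.21 by positions; with Gja1 it was 15.8 over positions with at least 3 cDNAs and 15.3 without those loci. By positions the SRSF7 ratios were 24.0 for Scd2, 29.3 for Gja1 and 13.3 for Slc7a5. Of 140 alternatives of all kinds, 67 stayed within the limits set around the main value, 70 moved outside them and 3 turned in direction. Only ratios could turn, whereas the 140 also include percentages and numbers of loci. The SRSF3 cytoplasm to nucleoplasm ratio of Scd2 turned to 1.05 by positions. The SRSF3 to SRSF7 ratio in nucleoplasm turned to 0.968 by positions for Gja1 and to 1.25 over positions with at least 3 cDNAs for Slc7a5. The cause was not tested. With at least 3 cDNAs per position 15 values could not be given, because a chromatin list then held none of the gene.

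The cytoplasm share near the 3′ end followed the window. For Scd2 it was 27.5% (SRSF3) and 42.4% (SRSF7) in the last 4 kb, and 27.5% and 43.6% in the 2 kb before the last cytoplasm position. For Gja1 it was 0% and 0% in the last 1 kb, 92.0% and 89.1% in the last 4 kb, and 87.9% and 80.1% before the last cytoplasm position. For Slc7a5 it was 36.6% and 29.4% in the last 1 kb, 90.3% and 77.3% in the last 4 kb, and 76.8% for SRSF7 over positions with at least 3 cDNAs.

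The percent of cytoplasm positions near a chromatin position was, at the same nucleotide, 38.4 (SRSF3) and 1.21 (SRSF7) for Scd2, 29.8 and 0.332 for Gja1, and 7.23 and 0.501 for Slc7a5. Within 15 nt it was 10.4 for Scd2 with SRSF7, 59.6 and 5.98 for Gja1, and 38.6 and 14.3 for Slc7a5. Over positions with at least 3 cDNAs it was 62.5 for Gja1 with SRSF3.

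At 200 cDNAs per locus, the loci beyond 2-fold higher in cytoplasm were 143 of 562 (25.4%, SRSF3) and 88 of 310 (28.4%, SRSF7). They were 194 of 479 (40.5%) and 63 of 335 (18.8%) over positions with at least 3 cDNAs, and 399 of 1050 (38%) and 143 of 852 (16.8%) as reported. No paired analysis was possible because the replicates of each group were pooled in 1 list, and for the same reason no replicate could be left out. Depth was low in SRSF7 chromatin, with 58 cDNAs over the 3 genes, and for Slc7a5 in SRSF3 chromatin, with 10.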

Other observations

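The loci with the pattern over the 6 lists most like each gene were found among 1687 loci. The measure was the Euclidean distance between log2 shares centred over the lists, with 1 cDNA added to each count. The lists include those whose ratio chose the genes, so likeness among the genes rests in part on that choice, and the distances are a description. For Gja1 the nearest was chr12:17273383-17291146 on the plus strand, at a distance of 0.901 where the median was 4.73. It held 128 cDNAs in cytoplasm, 108 in nucleoplasm and 84 in chromatin for SRSF3, and 304, 39 and 5 for SRSF7. For Scd2 the nearest was chr5:144165568-144192094 on the plus strand, at 0.838 where the median was 4.63. That locus was thin, with 12, 29 and 12 cDNAs for SRSF3 and 79, 13 and 0 for SRSF7. Its SRSF7 chromatin value thus rests on the added cDNA. The next was chr8:87355727-87370766 on the minus strand, at 0.926. This last locus held 93, 204 and 85 cDNAs for SRSF3 and 342, 70 and 4 for SRSF7, so it too had a higher SRSF3 share in nucleoplasm (0.0647%) than in cytoplasm (0.0362%). For Slc7a5 the nearest was chr8:49311078-49325875 on the minus strand, at 1.25 where the median was 6.17.

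By this measure Gja1 ranked 9 among the loci nearest to Scd2, at a distance of 1.28. Slc7a5 ranked 726 for Scd2 and 603 for Gja1, at distances of 4.39 and 4.18.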
